A study of Mus musculus with 2 samples.

Results

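Integrins and laminins, the receptors and the sheet-forming glycoproteins that tie muscle fibres to their basement membrane, were followed gene by gene in the gastrocnemius muscle of mice with a deletion of Cipc. Their subunits were picked by gene symbol, as every Itga, Itgb, Lama, Lamb or Lamc gene in the deposited table of gene counts, which gave 37 of 34745 genes. Of these, 18 encode integrin alpha subunits, 8 integrin beta subunits and 11 laminin chains. Values did not enter the choice of the genes, although earlier results of these data were known when it was made. RNA sequencing counts were available from 1 flox/flox library, from mice whose Cipc gene is flanked by loxP sites, and from 1 scKO library, both from C57BL/6 mice aged 8 weeks. The title of the series describes deletion in satellite cells alone (the muscle stem cells), and scKO was taken to stand for it. The title also speaks of mdx mice, which lack dystrophin, whereas neither library is labelled mdx. Which Cre line was used and whether animals were pooled is not stated in those sources. With 1 library per genotype there is no replicate check, so what follows describes differences between these libraries.

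An integrin is a pair of 1 alpha and 1 beta subunit that spans the cell membrane, binding matrix or another cell outside and the actin skeleton inside. A laminin is a trimer of 1 alpha, 1 beta and 1 gamma chain that polymerises into the basement membrane. In adult muscle the main laminin of the fibre carries the alpha 2 chain (Lama2), whose loss causes a congenital muscular dystrophy, and its main integrin receptor is the alpha 7 beta 1 pair (Itga7 and Itgb1), which works beside the dystrophin complex. Satellite cells lie between the fibre membrane and this sheet and hold on to it with alpha 7 beta 1.

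The libraries held 14727219 counts (flox/flox) and 13842100 counts (scKO), of which the 37 subunit genes took 11270 and 11018. Cipc, the label check, had 658 and 111 counts, 5.72-fold lower in scKO. The counts are from whole muscle, so they do not show whether the deletion was confined to satellite cells, as the title describes. The defining markers of skeletal muscle fibres were abundant in both libraries, Acta1 with 369713 and 341106 counts and Ckm with 281188 and 256917. Ratios are scKO over flox/flox on the log2 scale after scaling of the libraries, and brackets give 95% intervals that cover counting error alone. A gene was tested, meaning that its ratio was read, from a summed count of 20 upwards, which 12662 genes reached.

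Most subunits lay close together in the libraries. The integrin alpha 4 gene Itga4, higher in scKO, differed most among those with 100 or more summed counts. Of the 37 subunits, 30 were tested: 13 integrin alpha, 7 integrin beta and 10 laminin genes. The interval lay above 0 for 4 of them, Itga4, Itgav, Itgb4 and Lamb2, a share of 13.3% against a background of 12.8% of all tested genes. It lay below 0 for 2, Itga3 and Itgb6, a share of 6.67% against 12.3%. The remaining 24 intervals included 0. No tested subunit was at least 2-fold higher or lower with an interval that excluded 0, where 1.49% and 1.91% of all tested genes were. At a lower bar of 1.5-fold, again with an interval that excluded 0, Itga4 and Itgb4 were higher and none was lower, against 3.47% and 4.12% of all tested genes. The median ratio of the 30 subunits was -0.013, with quartiles of -0.21 and 0.24. That of all tested genes was 0.0021, with quartiles of -0.18 and 0.17. As a set, the subunits lay close to the background.

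Promoters are shown for the subunits whose intervals excluded 0 and for which a window was found: Itga4, Itgav and Lamb2, higher in scKO, and Itga3 and Itgb6, lower in scKO. Of the 2 windows each of Itga3 and Itgb6, the one at the outer start of the gene is printed. Each line is a window from 250 bases before to 50 bases after the RefSeq start of the gene in GRCm38.p6, 5′ to 3′ on the strand of the gene, and capitals mark the GC box GGGCGG or its reverse complement CCGCCC, the element that Sp transcription factors bind.
Itga4, chr2:79255176-79255475, plus strand: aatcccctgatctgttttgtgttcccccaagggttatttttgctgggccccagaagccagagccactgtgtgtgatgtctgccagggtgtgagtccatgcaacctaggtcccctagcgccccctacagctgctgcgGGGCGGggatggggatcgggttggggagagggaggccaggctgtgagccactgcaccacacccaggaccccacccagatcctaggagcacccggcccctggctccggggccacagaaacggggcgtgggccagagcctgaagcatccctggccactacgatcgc
Itgav, chr2:83724147-83724446, plus strand: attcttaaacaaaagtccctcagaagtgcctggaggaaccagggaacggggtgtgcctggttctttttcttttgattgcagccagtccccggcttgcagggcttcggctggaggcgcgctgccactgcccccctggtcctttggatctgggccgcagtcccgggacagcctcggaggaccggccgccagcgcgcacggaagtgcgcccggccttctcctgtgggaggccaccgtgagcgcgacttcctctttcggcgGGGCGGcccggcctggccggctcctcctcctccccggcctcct
Lamb2, chr9:108479612-108479911, plus strand: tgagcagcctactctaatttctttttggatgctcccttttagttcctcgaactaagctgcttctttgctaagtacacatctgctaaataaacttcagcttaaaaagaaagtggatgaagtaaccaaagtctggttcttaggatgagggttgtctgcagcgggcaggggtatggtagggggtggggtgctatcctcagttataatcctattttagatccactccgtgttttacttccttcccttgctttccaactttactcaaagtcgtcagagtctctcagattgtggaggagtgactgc
Itga3, chr11:95076665-95076964, minus strand: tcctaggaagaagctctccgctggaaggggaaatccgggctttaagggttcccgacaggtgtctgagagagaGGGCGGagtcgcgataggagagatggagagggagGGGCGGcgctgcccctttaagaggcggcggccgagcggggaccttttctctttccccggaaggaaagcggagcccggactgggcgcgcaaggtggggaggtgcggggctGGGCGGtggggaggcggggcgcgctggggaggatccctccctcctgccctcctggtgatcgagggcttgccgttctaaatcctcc
Itgb6, chr2:60722554-60722853, minus strand: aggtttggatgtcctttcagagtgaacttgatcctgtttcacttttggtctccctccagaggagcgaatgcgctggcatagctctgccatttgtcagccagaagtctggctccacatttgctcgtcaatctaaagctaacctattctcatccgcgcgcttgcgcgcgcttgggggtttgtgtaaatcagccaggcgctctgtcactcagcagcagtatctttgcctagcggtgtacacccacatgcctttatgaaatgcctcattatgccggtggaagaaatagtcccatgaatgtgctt
Promoter windows were found for 23 of the 37 subunits (26 windows, as Itga3, Itgb6 and Lamb3 have a second start). The GC box stood in 12 of the 26, and in 35.7% of 32851 promoter windows of all genes. It occurred 1 time each in the Itga4 and Itgav windows, 3 times in the Itga3 window shown and 1 time in the other Itga3 window, and not in the Lamb2 window or either Itgb6 window, so it was present and absent on both the higher and the lower side. The E-box CACGTG, the element bound by CLOCK and BMAL1, which the CIPC protein inhibits, was in 0 of the 26 windows and in 7.15% of all. The E-box CAGCTG, a form that MyoD binds, was in 8 of the 26, the Itga4 window among them, and in 16.3% of all. Both strands were searched. A match describes the letters and shows no binding, and a missing match says nothing of sites outside the window.

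**Figure D1:**
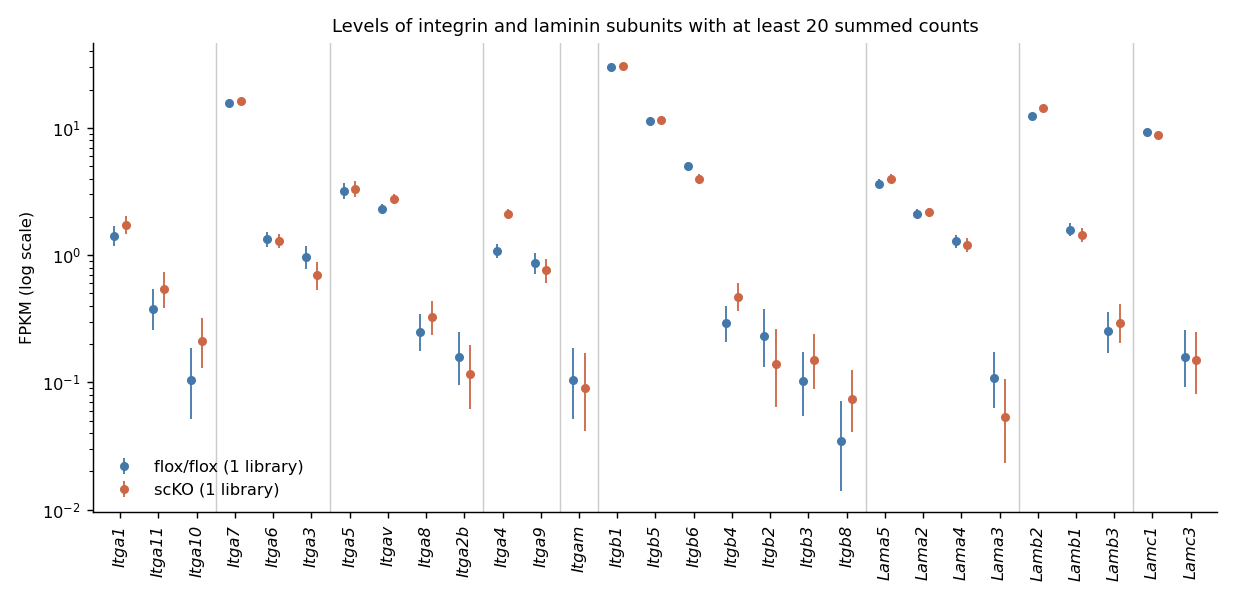
Levels of 29 of the 30 tested subunits as deposited FPKM (log axis) in the flox/flox library (blue) and the scKO library (orange), grouped by class between grey lines; bars are 95% Poisson intervals of the count and there is 1 library per genotype. Itgb1 stood highest at 30.3 and 30.5, and Itga4 showed the widest gap among the well-counted genes, 1.09 and 2.10.

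Per length, on the deposited FPKM scale (fragments per kilobase, relative to library depth), the order of the subunits was nearly the same in both libraries. Itgb1, the beta subunit shared by most integrins of muscle, was highest, at 30.3 FPKM in flox/flox and 30.5 in scKO. Itga7 followed at 15.7 and 16.2, then the laminin beta 2 gene Lamb2 at 12.4 and 14.5, Itgb5 at 11.4 and 11.5, and the laminin gamma 1 gene Lamc1 at 9.30 and 8.86. In flox/flox the counting intervals of Lamb2 and Itgb5 overlapped, so their order is not settled there, and in scKO the same held for Itga7 and Lamb2. The place of Itga7 also depends on the gene length used, since the FPKM imply 4013 bases for it where the merged exons of its annotation hold 8092. Per kilobase of merged exons Itga7 stood at 7.80 in flox/flox and 8.02 in scKO, below Lamb2 (15.2 and 17.8), Itgb5 (14.7 and 14.9) and Lamc1 (11.5 and 10.9). Itgb6 (4.99 and 3.98), Lama5 (3.65 and 4.0), Itga5 (3.21 and 3.33), Itgav (2.32 and 2.76) and Lama2 (2.12 and 2.17) came next. In flox/flox the interval of Itgb6 lay above that of Lama5, and in scKO the intervals of Lama5, Itgb6 and Itga5 each overlapped with the next. Reaching 1 FPKM or more took in 15 subunits in each library. Itga4 moved from place 15 of 37 in flox/flox to place 11 in scKO.

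Among the laminin-binding alpha subunits, Itga7 was level and Itga3 was lower. Itga7 (ENSMUSG00000025348, chromosome 10, 128933818 to 128958282, GRCm38) had 929 counts against 898 in scKO, a ratio of 0.0022 (-0.13 to 0.14), which places the libraries within these bounds of each other as far as counting error goes. Itga6, which pairs with beta 1 or beta 4 and serves endothelium, nerve sheath and satellite cells, had 241 and 221 counts (-0.074, -0.34 to 0.20). Itga3 (ENSMUSG00000001507, chromosome 11, 95044474 to 95076801) had 96 and 65 counts, a ratio of -0.51 (-0.99 to -0.042) whose upper bound nearly touched 0. The reads were counted per gene, so the splice forms of Itga7 and Itga6, which differ between myoblasts and fibres, could not be separated.

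The 3 tested collagen-binding alpha subunits had point ratios above 0 and intervals that include it. Itga1, which binds collagen IV, had 125 and 143 counts (0.24, -0.11 to 0.60), and Itga11, a fibroblast receptor for fibrillar collagen, 30 and 40 (0.46, -0.25 to 1.2). Itga10 had 11 and 21 counts (0.95, -0.13 to 2.18), and the gene model Gm42957, with which it shares 1739 exon bases on the same strand, had 0 in both. Itga2, the alpha subunit of the platelet and epithelial collagen receptor, had 2 and 1 counts, too few to be tested (-0.70, -6.83 to 3.31).

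Itga4 had the largest ratio of any subunit with 100 or more summed counts. It encodes integrin alpha 4, which pairs with beta 1 or beta 7, binds VCAM1 and fibronectin, and is known on leukocytes and on developing muscle. The gene (ENSMUSG00000027009, plus strand of chromosome 2, 79255426 to 79333123) had 250 counts in the flox/flox library against 453 in the scKO library. That is 1.88-fold higher in scKO, a ratio of 0.91 (0.68 to 1.14). Among all genes with a summed count of 100 to 1000, 3.11% were at least 1.5-fold higher with an interval above 0. Its close relative Itga9, which also pairs with beta 1, had 108 and 89 counts (-0.23, -0.65 to 0.19). The ratio of Itga4 to Itga9 was 1.26 per length in flox/flox and 2.76 in scKO; this pair was chosen after its values were seen.

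Markers of other cells that carry alpha 4 are given beside it. Of 6 tested leukocyte and macrophage markers, 0 had an interval that excluded 0. Their full list of 13 genes summed to 22.6 CPM in flox/flox and 23.8 in scKO, where CPM is the count relative to the scaled library size. Ptprc, the pan-leukocyte marker CD45, had 39 and 34 counts, and Cd3e, S100a8, S100a9 and Ly6g, markers of T cells and neutrophils, had 0 in both. The satellite cell list had 1 of 8 intervals below 0, that of Pax7 (69 and 39 counts), 0 above, and sums of 61.5 and 64.2 CPM. The endothelial list had 3 of 11 intervals above 0 (27.3%, against 12.8% of all tested genes), those of Flt1, Tek and Cdh5. It had 0 below, and sums of 297 and 341 CPM. The interval of Cdh5 (0.13, 0.0027 to 0.26) included 0 with median-of-ratios and upper-quartile scaling. With total-count scaling those of Pecam1 (0.19, 0.04 to 0.35) and Vwf (0.31, 0.03 to 0.59) also lay above 0. The alpha 4 ligand Vcam1 had 47 and 57 counts (0.33, -0.25 to 0.92) and Fn1, the fibronectin gene, 438 and 502 (0.25, 0.06 to 0.44). In whole muscle, more cells of a type and more RNA per cell cannot be told apart. The exons of Itga4 share 1124 bases with Cerkl on the opposite strand, and the strand setting of the counting is not known. Cerkl had 5 counts in each library. The part of leukocytes, satellite cells and endothelium in the Itga4 ratio was not tested.

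Of the alpha subunits that recognise the RGD sequence of matrix proteins, Itgav was slightly higher and Itga5 level. Itgav (ENSMUSG00000027087, chromosome 2, 83724397 to 83806916), whose product binds vitronectin and latent TGF-beta with several beta partners, had 472 and 527 counts (0.21, 0.028 to 0.39). Its exons share 634 bases with Gm13684 on the opposite strand, which had 0 counts in both libraries. The fibronectin receptor subunit Itga5 had 207 and 202 (0.016, -0.27 to 0.30). Itga8, a receptor for nephronectin, had 36 and 44 (0.34, -0.33 to 1.02). The platelet subunit Itga2b had 19 and 13 (-0.48, -1.64 to 0.60). Beside it, a platelet list of 7 genes summed to 4.33 and 2.57 CPM, with Gp1ba and Gp6 at 0 in both libraries. Of the 7 genes 2 were tested, and both intervals include 0. They were Pf4 with 35 and 24 counts (-0.48, -1.31 to 0.30) and Gp1bb with 19 and 8 (-1.15, -2.60 to 0.06). The part of platelets in the Itga2b ratio was not tested.

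The leukocyte alpha subunits were near the limit of detection. Itgal had 12 and 5 counts, Itgam 11 and 9, Itgax 7 and 8, and Itgae 2 and 3. Itgad had 0 in both, and 0 counts allow up to 0.204 CPM (flox/flox) or 0.217 CPM (scKO). Itgam alone reached a summed count of 20 (-0.23, -1.69 to 1.17), and it shares 3450 exon bases with the gene model Gm49368 on the same strand, which had 5 and 17 counts. Itgam, Itgax and Itgad lie side by side on chromosome 7, with gaps of 11055 and 3718 bases.

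**Figure D2:**
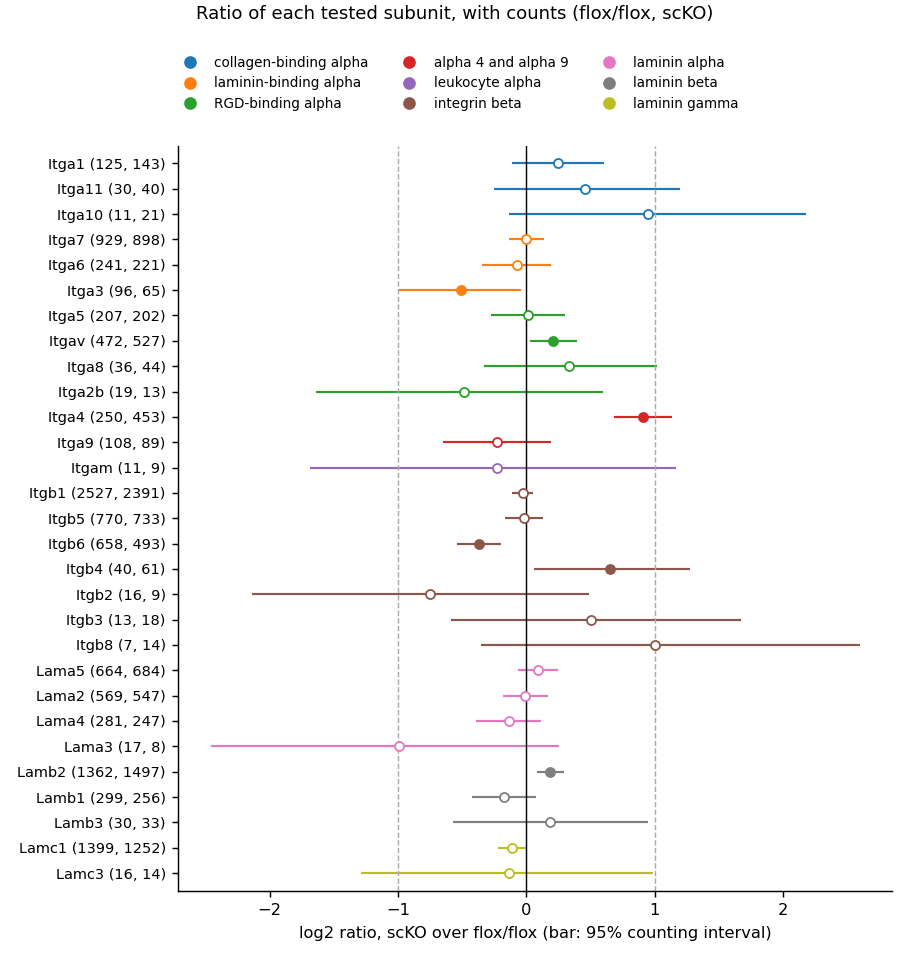
Log2 ratio of scKO over flox/flox (horizontal axis) for 29 of the 30 tested subunits, with the counts of both libraries in brackets; bars are 95% counting intervals, filled points have intervals that exclude 0 and dashed lines mark 2-fold. The filled points are Itga4, Itgav, Itgb4 and Lamb2 to the right of 0 and Itga3 and Itgb6 to the left.

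Among the beta subunits the common partners were level, Itgb6 was lower and Itgb4 higher. Itgb1 (ENSMUSG00000025809, chromosome 8, 128685654 to 128733200) had 2527 and 2391 counts (-0.029, -0.11 to 0.053). Itgb5, which pairs with alpha v, had 770 and 733 (-0.020, -0.17 to 0.13). Itgb6 (ENSMUSG00000026971, minus strand of chromosome 2, 60598292 to 60722643), another partner of alpha v that activates latent TGF-beta and is best known from epithelia, had 658 and 493 counts, a ratio of -0.365 (-0.54 to -0.20). Markers of epithelium were scarce in both libraries, and their part in the Itgb6 ratio was not tested. Krt14, Krt15 and Epcam had 0 counts, Krt5 1 and 0, and Cdh1 3 and 5. The other members had few counts, Perp 30 and 17 (-0.75, -1.72 to 0.14), Krt10 11 and 12 and Sfn 11 and 12, and the list of 8 summed to 3.85 and 3.28 CPM. With Itgb6 lower and Itgav higher, the ratio of Itgb6 to Itgav was 2.15 per length in flox/flox and 1.44 in scKO (a pair chosen after its values were seen).

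Itgb4 (ENSMUSG00000020758, chromosome 11, 115974709 to 116008412), the partner of alpha 6 in hemidesmosomes and on Schwann cells and endothelium, had 40 and 61 counts, 1.58-fold higher (0.65, 0.061 to 1.27). Beside it, the Schwann cell list had 0 of 8 intervals above 0 and 2 below, those of Sox10 and Pmp22, and summed to 106 and 96.5 CPM. The endothelial list had 3 of 11 above (27.3%, against 12.8% of all tested genes), 0 below, and sums of 297 and 341 CPM. As given above, other scalings moved Cdh5, Pecam1 and Vwf across this line. The part of these cells in the ratio was not tested. The leukocyte beta subunit Itgb2 had 16 and 9 counts (-0.75, -2.14 to 0.49), Itgb3 13 and 18 (0.50, -0.59 to 1.67) and Itgb8 7 and 14 (1.0, -0.35 to 2.60). Itgb7, the other partner of alpha 4, had 9 counts against 1 in scKO, under the minimum for testing; its ratio of -2.62 carried an interval from -8.57 to -0.27.

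The laminin alpha chains did not differ beyond counting error. Lama2 (ENSMUSG00000019899, chromosome 10, 26980036 to 27619758) had 569 and 547 counts (-0.0057, -0.18 to 0.17). Lama5, found in vessels and at the neuromuscular junction, had 664 and 684 (0.094, -0.062 to 0.25). Lama4, found in vessels and nerve, had 281 and 247 (-0.13, -0.39 to 0.12). Lama3, the alpha chain of epithelial laminin, had 17 and 8 counts (-0.99, -2.46 to 0.25), and Lama1, an embryonic chain, 3 and 0.

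Among the beta and gamma chains, Lamb2 was higher. Lamb2 (ENSMUSG00000052911, plus strand of chromosome 9, 108479736 to 108490530), the beta chain concentrated at the neuromuscular junction and also present in vessels, had 1362 and 1497 counts, 1.14-fold higher (0.19, 0.081 to 0.29). Lamb1, the beta chain of most of the fibre surface, had 299 and 256 (-0.17, -0.42 to 0.073). Lamc1 (ENSMUSG00000026478, chromosome 1, 153218922 to 153332786), the gamma chain of nearly all muscle laminins, had 1399 and 1252 (-0.11, -0.22 to 0.0022), and its interval lay below 0 with upper-quartile and median-of-ratios scaling. Other chains were scarce: Lamb3 had 30 and 33 counts (0.19, -0.57 to 0.95) and Lamc3 16 and 14 (-0.14, -1.29 to 0.99), with intervals that include 0.

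**Figure D3:**
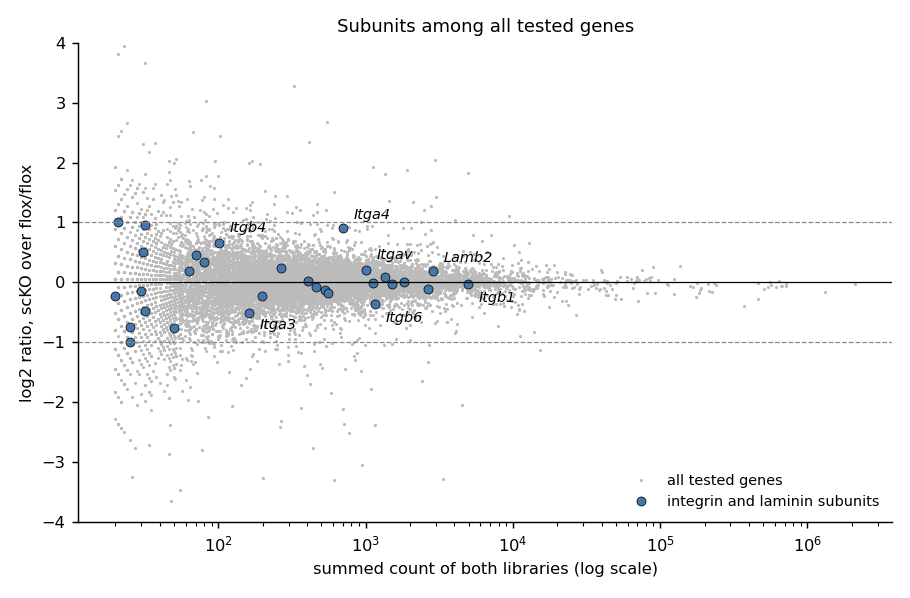
Log2 ratio of scKO over flox/flox against the summed count of both libraries (log axis) for all 12662 tested genes (grey; 18 genes lie beyond the vertical range) and the 30 tested subunits (blue); dashed lines mark 2-fold. The subunits lie within the cloud of all genes, and Itga4, at 703 summed counts and a ratio of 0.91, lies below the upper dashed line.

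How widely all genes scattered depended on their counts, and subunits with a summed count of 100 to 1000 were read against genes of like depth. No share of like depth was taken for subunits outside that range. A summed count of 100 to 1000 was reached by 10 subunits, 3 with intervals above 0 (Itga4, Itgav and Itgb4) and 1 below (Itga3). Among all genes of that depth 11.1% had intervals above 0 and 10.7% below. A summed count of 1000 or more was reached by 8 subunits, Itgb1, Lamb2, Lamc1, Itga7, Itgb5, Lama5, Itgb6 and Lama2, with ratios from -0.365 to 0.19. The 12 tested subunits below 100 summed counts had intervals that include 0, and they can hide differences of over 1.5-fold at this depth.

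**Figure D4:**
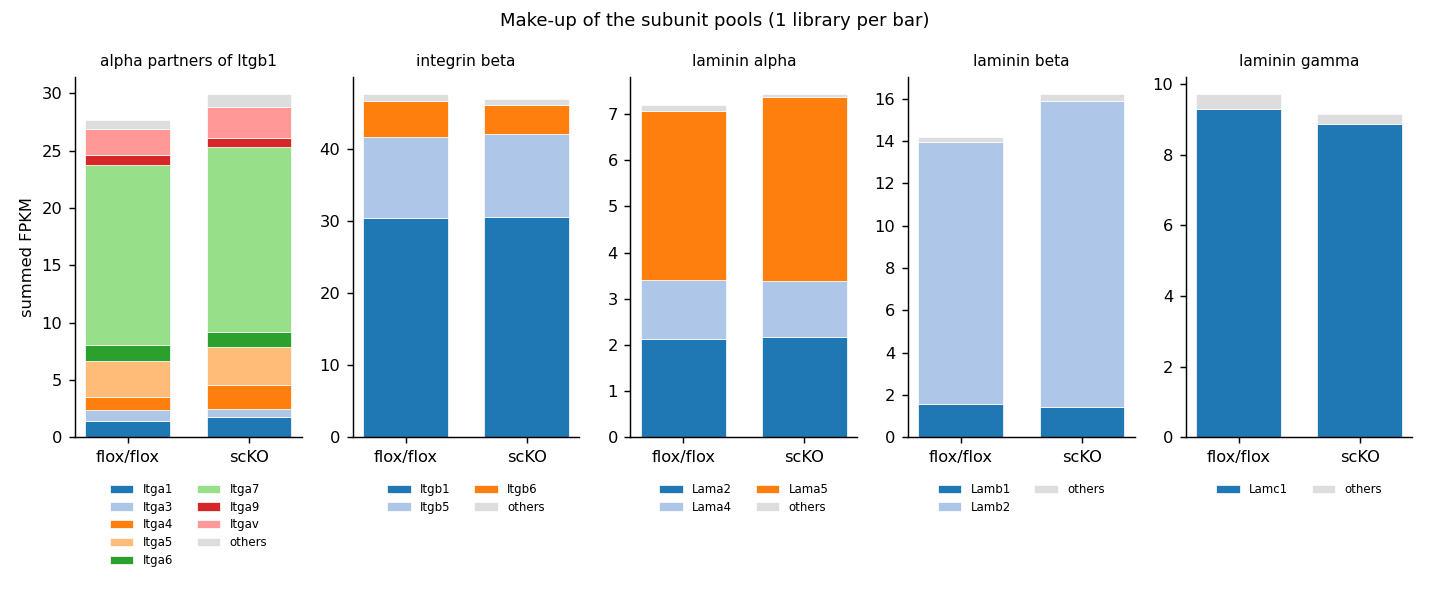
Summed FPKM (vertical axis, a scale of its own in each panel) of 5 pools of subunits in the flox/flox and scKO libraries, stacked by gene; genes under 3% of the pool in both libraries are grouped as others. Itga7 filled 56.8% and 54.0% of the alpha pool, Itga4 3.93% and 7.01%, and Lamb2 filled 87.0% and 89.2% of the laminin beta pool.

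Since subunits work as pairs and trimers, their balance within each library was read per length. The 12 alpha subunits that can pair with beta 1 summed to 27.7 FPKM in flox/flox and 29.9 in scKO, against 30.3 and 30.5 for Itgb1 itself. With merged exon lengths the pool summed to 20.1 and 22.1 against 42.0 and 42.3 for Itgb1, so the nearness of the sums depends on the lengths. Itga7 made up 56.8% and 54.0% of that alpha pool, Itga5 11.6% and 11.1%, Itgav 8.39% and 9.22%, and Itga4 3.93% and 7.01%. The shares rest on the same lengths. With merged exons Itga7 made up 38.8% and 36.2% and Itga4 6.04% and 10.6%. The beta pool was led by Itgb1 (63.8% and 65.2%), Itgb5 (23.9% and 24.5%) and Itgb6 (10.5% and 8.48%).

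Between the libraries, the ratio to Itgb1 of each of the 11 tested alpha subunits that can pair with it and 3 ratios between laminin chains were compared, 14 pairs in all, and 4 of the intervals excluded 0. They were Itga4 over Itgb1 (0.94 on the log2 scale, 0.70 to 1.18), Itgav over Itgb1 (0.24, 0.039 to 0.44), Itga3 over Itgb1 (-0.48, -0.97 to -0.0058) and Lamb1 over Lamb2 (-0.36, -0.63 to -0.091). Itgb1 itself was level (-0.029), so the ratios to it largely repeat those of Itga4, Itgav and Itga3 alone (0.91, 0.21 and -0.51). No share over other pairs of genes was taken. Itga7 over Itgb1 stood at 0.52 per length in flox/flox and 0.53 in scKO (0.185 and 0.189 with merged exon lengths), a difference of 0.031 (-0.13 to 0.19).

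The laminin trimer was led by different chains at each position. Of the alpha chains, Lama5 made up 50.7% in flox/flox and 53.8% in scKO, Lama2 29.5% and 29.2%, and Lama4 17.98% and 16.3%. Lamb2 made up 87.0% and 89.2% of the beta chains and Lamc1 95.8% and 96.8% of the gamma chains. Summed alpha chains stood at 7.19 and 7.43 FPKM, beta chains at 14.2 and 16.2, and gamma chains at 9.71 and 9.15. Lamb2 over Lamc1 was 1.33 in flox/flox and 1.63 in scKO per length, a pair chosen after its values were seen. Lama5 over Lama2 (1.72 and 1.84) and Lama4 over Lama2 (0.61 and 0.56) had intervals of the difference that include 0. RNA levels of the chains do not give the amount of secreted protein.

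Several other components of the basement membrane were lower in scKO, collagen IV among them. Of 18 tested genes, 8 had intervals below 0 (44.4%, against the background of 12.3%) and 2 above, with a median of -0.19, while 0 of the 10 tested laminin genes had an interval below 0 (1, Lamc1, with upper-quartile or median-of-ratios scaling). The difference between the lists was not tested. With total-count scaling 6 basement membrane genes had intervals below 0, since those of Hspg2 and Smoc2 then included 0. The background share covers genes of all depths. Both chains of the common collagen IV network were lower, Col4a1 with 1511 and 1145 counts (-0.35, -0.46 to -0.24) and Col4a2 with 1294 and 957 (-0.38, -0.51 to -0.26). Col4a5, a minor collagen IV chain, had 87 and 43 counts (-0.96, -1.53 to -0.42) and Col15a1, a collagen of the outer face of the sheet, 588 and 385 (-0.56, -0.75 to -0.37). Nid1, which links laminin to collagen IV, had 1152 and 962 (-0.21, -0.33 to -0.08). Col4a3 stood at -0.40 (-0.96 to 0.15). Col18a1, at 91 and 117 counts (0.41, 0.01 to 0.83; 0.40, -0.0034 to 0.82 with median-of-ratios scaling), and Egflam, which encodes the dystroglycan ligand pikachurin, at 472 and 551 (0.27, 0.09 to 0.45), had intervals on the higher side. Among markers of fibro-adipogenic progenitors, the matrix-making mesenchymal cells, values were lower too, with 5 of 8 intervals below 0, 0 above, and sums of 439 and 391 CPM; their part in these ratios was not tested.

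Ligands of integrins other than laminin had a median of 0.0073, with 6 of 19 intervals below 0 (31.6%, against 12.3% of all tested genes) and 1 above (5.26%, against 12.8%). The markers of fibro-adipogenic progenitors given above, 5 of 8 below 0, stand beside these as well, and their part was not tested. Fibrillar collagens were among the lower ones, Col3a1 at -0.62 (-0.71 to -0.52) and Col1a1 at -0.45 (-0.61 to -0.30), as were the microfibril gene Fbn1 at -0.78 (-1.01 to -0.55) and the alpha 8 ligand Npnt at -0.63 (-0.9995 to -0.27). Fn1 was the gene above 0.

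Other laminin receptors and membrane proteins that associate with integrins had 5 of 22 intervals above 0 (22.7%, against 12.8% of all tested genes) and 3 below (13.6%, against 12.3%), with a median of -0.014. Dag1, which encodes dystroglycan, the other large laminin receptor of muscle, had 2328 and 2926 counts (0.38, 0.30 to 0.46), and Cd47, which associates with alpha v integrin, 281 and 352 (0.38, 0.15 to 0.61). Those 2 genes were the largest on the higher side. On the lower side 2 genes passed 2-fold: Cav1, the caveolin of endothelium and other non-muscle cells, had 570 and 127 counts (-2.11, -2.40 to -1.84) and the syndecan Sdc1 47 and 19 (-1.23, -2.11 to -0.46). Beside Cav1, the endothelial list had 0 of 11 intervals below 0 and 3 above, a number that changed with the scaling as given for Itga4. The fibro-adipogenic list had 5 of 8 below and 0 above, and a list of smooth muscle and pericyte markers 2 of 10 below and 2 above. The part of these cells in the Cav1 ratio was not tested. Cav3, the muscle caveolin, had 651 and 602 (-0.06, -0.22 to 0.10), and Sdc2 stood at -0.41 (-0.65 to -0.17).

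Among the proteins that tie integrins to actin, zyxin and the muscle filamin were lower and tensin 3 was higher. Of 29 tested adaptor and linker genes, 5 had intervals above 0 (17.2%, against 12.8% of all tested genes) and 6 below (20.7%, against 12.3%), and the median was -0.015. The activators talin and kindlin had intervals that include 0, with Tln1 at 1115 and 1144 counts (0.09, -0.03 to 0.21; 0.13, 0.01 to 0.25 with total-count scaling), Tln2, the main talin of adult muscle, at 1823 and 1741 (-0.02, -0.11 to 0.08), and Fermt2 at 3415 and 3213 (-0.04, -0.11 to 0.03). The integrin-linked kinase gene Ilk had 355 and 325 (-0.08, -0.30 to 0.14) and vinculin (Vcl) 1457 and 1355 (-0.05, -0.16 to 0.05). Zyxin (Zyx), recruited to adhesions under tension, was lower with 296 and 175 counts (-0.71, -0.99 to -0.43), as was Flnc, the muscle filamin, with 10183 and 7370 (-0.42, -0.46 to -0.37). Tensin 3 (Tns3) was higher, with 101 and 142 (0.54, 0.16 to 0.93).

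Adhesion kinases and their regulators had 4 of 26 intervals above 0 (15.4%, near the 12.8% of all tested genes), 0 below and a median of 0.012. Git2 (0.49, 0.26 to 0.73) and Git1 (0.31, 0.13 to 0.49), scaffolds of adhesion turnover, and the phosphatase gene Ptpn11 (0.10, 0.01 to 0.20) were 3 of these, and Itgb1bp2 was the remaining one. With median-of-ratios scaling the interval of Ptpn11 included 0 (0.09, -0.0028 to 0.19), which left 3. Total-count scaling gave 6, since the intervals of Crk (0.15, 0.02 to 0.29) and Cib2 (0.14, 0.02 to 0.26) then lay above 0. The focal adhesion kinase gene Ptk2 had 365 and 362 counts (0.04, -0.17 to 0.25), and Nedd9 and Ptpn12 stood at 0.32 (-0.04 to 0.69) and 0.28 (-0.05 to 0.61).

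**Figure D5:**
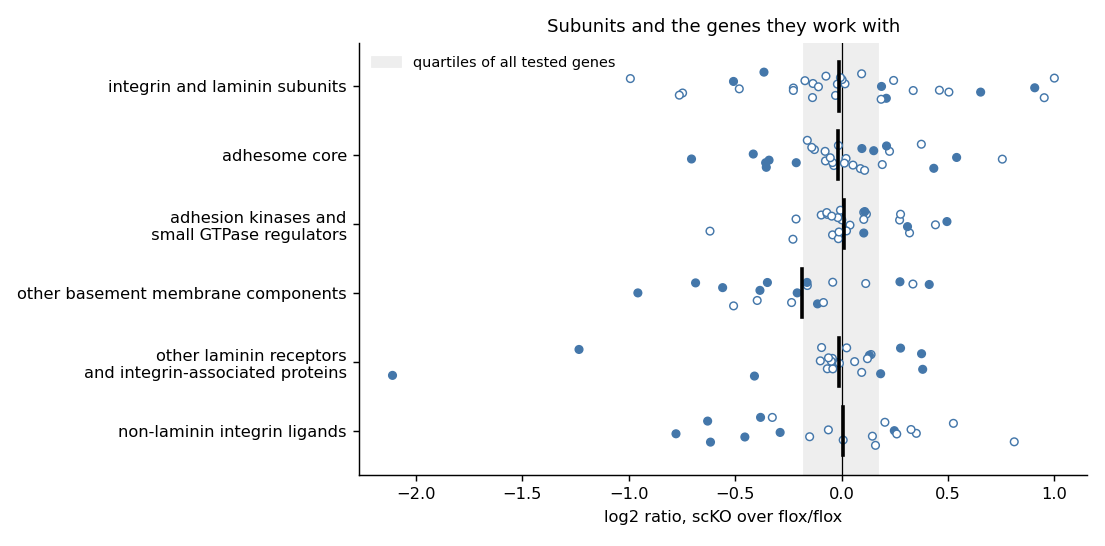
Log2 ratio of scKO over flox/flox (horizontal axis) for the tested subunits and for 5 lists of genes they work with; each point is a gene (vertical spread within a row has no meaning), filled where its interval excludes 0, the black bar is the median and grey spans the quartiles of all tested genes. The basement membrane list has its median at -0.19, against -0.013 for the subunits.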

How the data were processed

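Whole gastrocnemius RNA was sequenced in 1 library per genotype. Gene counts were deposited by the authors as whole numbers per Ensembl gene, together with FPKM values per library, per the file headers. HISAT2 2.0.4, StringTie 1.3.0, CASAVA and the build GRCm38 appear in the submitters' processing notes, with neither role nor order; annotation, strand setting and handling of shared reads are not given in the sources used here. The FPKM of every tested gene with counts in both libraries equalled its count over the library total and a common length to within 0.0363%, so they were used to compare genes per length and as an alternative.

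Libraries were scaled by TMM (edgeR 4.0.16, R 4.3.3), giving factors of 0.987 and 1.01. Ratios used a prior count of 0.5 and exact conditional binomial intervals (95%, Clopper-Pearson); ratios between a pair of genes used exact conditional odds ratios (scipy 1.17.1). With 1 library per group no p-value was computed. A single count equals 0.0679 and 0.0722 CPM; intervals and the limit of 3 counts for a 0 cover counting error only, not PCR copies or differences between animals. CPM values are relative to the scaled library size, while the limits for 0 counts use the total count.

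Symbols came from a reference table that named 34267 of 34745 identifiers, positions and merged exons from GENCODE M21 (GRCm38), and promoters from RefSeq. Subunits, classes, partner lists and marker lists were chosen with earlier results of these data known. A few genes are left unnamed here; from each partner list the genes past 2-fold and up to 4 with the largest ratio at 100 or more summed counts were named, and others named there were chosen after their values were seen. Protein features of the subunits were planned and not analysed here. The ratio, interval and call rule were tested on simulated counts that held counting error alone. Such counts test the computation, and cannot show how the rule performs where animals differ. Alternatives covered scaling (total counts, upper quartile, DESeq2 1.42.0 size factors), count minimum, prior count, FPKM, fold and gene length.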

Additional observations from a re-analysis of the deposited data

How the results depend on the processing

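Under the alternatives tried no ratio of a called subunit changed sign, and 271 of 288 comparisons of counts, medians and per-length ratios with an alternative stayed within the bounds set for them. For a count the bound was a change of up to 1.5-fold. For a median the bounds were the medians of the single-gene intervals. Those of the subunits were -0.34 and 0.30, while total-count scaling moved their median from -0.013 to 0.025, so the bounds hardly test a median. The FPKM alternative is close to total-count scaling by construction. Over tested genes with a symbol, total-count scaling raised the median from 0.0020 to 0.040. Over the alternatives Itga4 ranged from 0.89 to 0.95. Lamc1 had an interval below 0 with median-of-ratios (-0.12) and upper-quartile scaling (-0.11).

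The fold bar moved some counts. At 1.5-fold with an interval that excluded 0, 2 subunits were higher in place of 0, and 1 adaptor, 2 basement membrane genes and 3 integrin ligands were lower in place of 0. With a summed count of at least 1, 1 subunit was at least 2-fold lower, Itgb7. Among the laminin receptors and associated proteins, 1 gene in place of 2 was at least 2-fold lower with a summed count of at least 100, and 1 on the FPKM scale. Median-of-ratios scaling left 1 basement membrane gene with an interval above 0 in place of 2, and total-count scaling gave 2 integrin ligands in place of 1.

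Merged exon lengths changed several per-length ratios, since they differ from the lengths behind the FPKM. Itga7 over Itgb1 became 0.185 (flox/flox) and 0.189 (scKO), Itga4 over Itgb1 0.0289 and 0.0553, summed alpha subunits over Itgb1 0.478 and 0.523, and laminin alpha over gamma chains 0.673 and 0.736.

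No paired analysis was possible because each genotype has 1 library and the labels give no replicate numbers. Leaving out a library was not possible for the same reason. Depth limits the 12 tested subunits under 100 summed counts most.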

Other observations

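Genes whose symbols resemble those of the subunits, but which encode other proteins, were also read. Itgb1bp2, which encodes melusin, a muscle protein that binds the tail of the beta 1 subunit, had 2136 counts against 2223 in scKO (0.11, 0.022 to 0.20). Itgb1bp1, which encodes the beta 1 binding protein ICAP-1, had 190 and 158 (-0.21, -0.53 to 0.097), and Itgb3bp had 63 and 58 (-0.068, -0.61 to 0.47). The secreted, integrin-like gene Itgbl1 had 29 and 36 counts (0.36, -0.38 to 1.12), and Itgb2l had 0 in both libraries.

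Some subunits share a chromosome region or exons with other genes of interest. Itgb7, with 9 and 1 counts and so not tested, lies 174198 bases from Sp1 on chromosome 15 (102406143 to 102436404, GRCm38), and Sp1 had 31 and 293 counts. Genes lying between Itgb7 and Sp1 were not looked at, and a link between their counts was not tested. Itgad, at 0 counts in both libraries, shares 70 exon bases on the opposite strand with Cox6a2, which had 8229 and 8925 counts. Itga1 and Itga2 lie 20995 bases apart on chromosome 13, and Itga1 was far better counted, with 125 against 2 counts in flox/flox.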
